A study of Rattus norvegicus with 42 samples.

Results

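Wide peaks are the broadest stretches of transcription start sites in the deposited peak table: clusters of CAGE tags that span at least 500 nt of 1 strand, measured from the first to the last base. The rule took 1076 of the 9971 peaks, with the mitochondrial genome left out. In CAGE, short for cap analysis of gene expression, tags are read from the 5′ ends of capped RNA, and each marks 1 base at which a transcript starts, called a CTSS (CAGE tag start site). The tags came from 21 mature Wistar rats. Controls were not unloaded, other rats were unloaded by tail suspension for 1, 3 or 7 days (D1, D3 and D7), and the remaining rats had recovered for 1, 3 or 7 days since the end of a suspension that lasted 7 days (R1, R3 and R7). Each of the 7 phases had 3 rats, and the soleus (slow muscle) and the extensor digitorum longus (EDL, fast muscle) of every rat gave a library each, 42 in all. Replicates were different rats, so the tests of phases measured the spread between animals, and all phases of a muscle shared its 3 controls. Level is given as CPM, the tags of a peak scaled to a library of 1000000 tags.

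Promoters start transcription in different ways. At sharp promoters nearly all transcripts begin at 1 base or a few neighbouring bases, and such promoters often carry a TATA box and drive genes with restricted expression. Broad promoters spread their starts over many positions and are typical of CpG islands and of genes used by most cells. Tags can also gather along the body of very abundant transcripts, so a long cluster need not be a single promoter, and its width alone does not say how its starts are distributed. The positions here are those of Rnor_6.0. No annotation of that build was used here, so the peaks are given by position without gene names or sequence, and neither the muscle labels nor the gene class of a peak was checked against marker genes.

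Libraries held 4718621 to 22019390 tags in soleus and 1778712 to 23103236 in EDL. The sequencing lanes, as the column names number them, were not spread evenly over the phases: all 6 control libraries were run in lane 1 and all 6 R1 libraries in lane 4, and outside the controls only 1 library, of soleus at D1, was run in lane 1.

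The members spanned 500 to 10924 nt with a median of 751.5 nt. Of these, 316 reached 1000 nt, 56 reached 2000 nt and 9 reached 5000 nt. They lay on 21 chromosomes, 540 on the plus and 536 on the minus strand, and covered 36.6% of the length of all nuclear peaks. The limit of 500 nt fell within a continuous range of widths: 34 peaks fell short of it by at most 10 nt, and 46 members were under 510 nt wide. Just outside stood chr6:76079677-76080175 (1 nt too short, plus strand, 5.04 CPM), and just inside, at 500 nt, stood chr14:114126892-114127391 (plus strand, 19.3 CPM) and chr10:67325070-67325569 (plus strand, 5.65 CPM). Each of the 9969 nuclear peaks of the table, wide or not, held at least 10 CPM in at least 1 library, so a peak that is low elsewhere is present only through the libraries where it is high. No step between neighbouring used positions within a member was longer than 19 nt. That continuity rested on pooling the libraries: in any 1 library alone, only 55 to 109 of the members still formed an unbroken stretch of 500 nt when starts under 20 nt apart were joined.

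Tags were spread over these peaks very unevenly. The spread was measured as the 10 to 90% width, the distance between the positions by which 10% and 90% of the tags had started. Over the pooled tags its median was 386 nt in wide peaks, 54.1% of the width of the peak, against 52 nt in the 7540 peaks over 100 and under 500 nt (the middle class) and 12 nt in the 1353 peaks of at most 100 nt (the narrow class). In 419 wide peaks the 10 to 90% width was itself at least 500 nt. In 108 others it was at most 50 nt, and in 44 of those at most 10 nt, so that most of the tags started within a small part of the peak. The strongest single position held a median of 12.1% of the tags of a wide peak (21.6% and 40.5% in the middle and narrow classes), at least 50% in 51 members and under 10% in 421. With each peak divided into 3 equal parts, it lay in the 5′ part in 485 members and in the 3′ part in 231.

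Examples show both ends of this range. The 3 widest members were chr1:225198590-225209513 (plus strand, 10924 nt, 70.0 CPM), chr2:22700023-22710104 (minus strand, 10082 nt, 280.3 CPM) and chr3:53633317-53642698 (plus strand, 9382 nt, 642 CPM). Their 10 to 90% widths were 9060, 8827 and 6986 nt, and their strongest positions held 2.63%, 2.06% and 1.82% of the tags. In the last of them tags started at 8027 different positions, 85.6% of all bases. The 10 to 90% width took up the largest share of the peak in chr3:150155143-150155789 (minus strand, 647 nt), at 93.4%, and in chr8:117114988-117115870 (plus strand, 883 nt), at 92.3%. These 2 were weak peaks, at 5.78 and 7.80 CPM. The opposite form was chr9:80165974-80167168 (minus strand, 1195 nt, 204.8 CPM), where 86.1% of the tags started at 1 base, and chr4:56710804-56711645 (plus strand, 842 nt, 459 CPM), where 88.5% did. In both the 10 to 90% width was 1 nt. In the libraries taken singly the strongest base of chr9:80165974-80167168 held 82.5% to 89.0% of its tags in soleus and 81.8% to 90.6% in EDL.

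**Figure D1:**
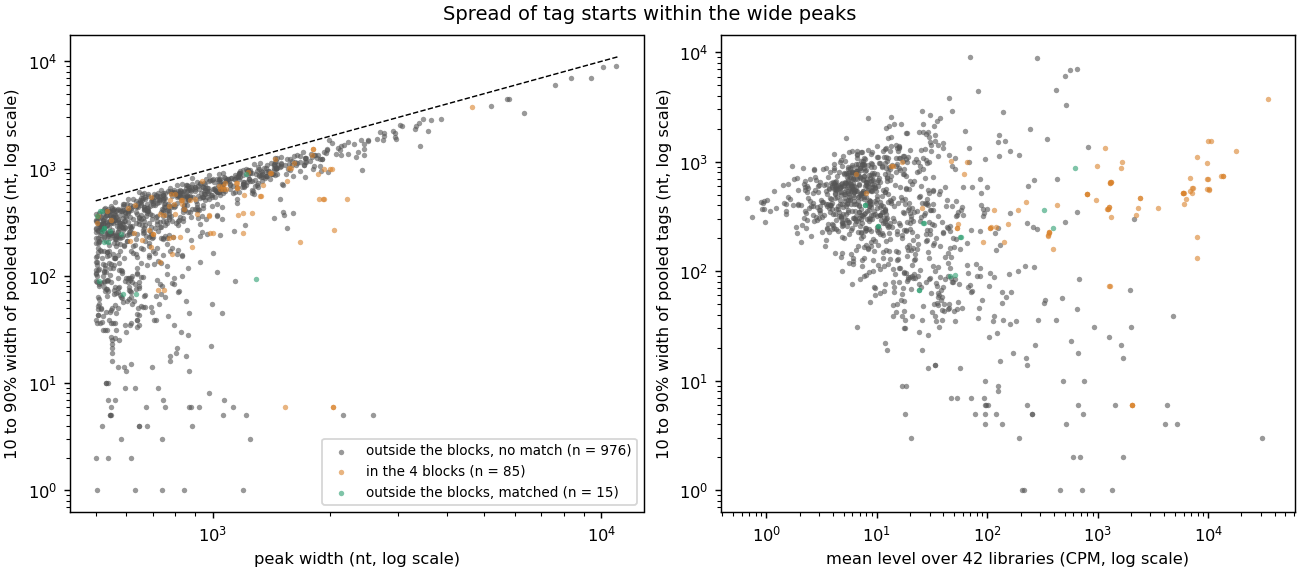
The 10 to 90% width of the pooled tags (nt, log scale) of each of the 1076 wide peaks, against peak width on the left (dashed line: spread equal to width) and against the mean CPM over 42 libraries on the right (log scales). Colours show whether the peak lay in 1 of the 4 blocks (defined below) and, outside them, whether its tag profile matched that of another peak. All peaks lie below the dashed line, with a median spread of 54.1% of the width, and 108 fall to 50 nt or less, 105 of them outside the blocks and 1 of them under 10 CPM.

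The level of wide peaks ran from 0.665 to 35118 CPM, with a median of 13.02 CPM (9.61 in the middle and 7.74 in the narrow class). Per 100 nt of peak the order was the reverse, 1.55 against 4.82 and 14.5 CPM. Width grows with level and depth by construction of the clustering, and the second measure is divided by width. Both orders are therefore descriptions only. A large part of the tags lay in a few places. A match meant tag profiles of 2 wide peaks alike position by position (r of at least 0.9 between log2 tag counts over at least 300 nt). Blocks were runs of wide peaks, with gaps of up to 100 kb, holding at least 3 with a match on another chromosome. There were 4, chr14:46517576-46687464, chr1:11903545-11975116, chr5:91125751-91141026 and chr6:30628568-30639295. They held 85 wide peaks, of which 64 matched another wide peak, and matching was part of the rule that chose them. The study's methods let a read map to up to 20 loci. Whether these tag files carry that setting is not settled, so the division of tags among these peaks is uncertain. Between 24.6% and 43.5% of a library's tags fell in the blocks, and 9 of the 10 and 27 of the 30 strongest wide peaks lay in them. The strongest of all was chr14:46643057-46647705 (plus strand, 4649 nt) at 35118 CPM, followed within the same block by chr14:46640859-46642302 (plus strand, 1444 nt) at 17849 CPM. A further 13 wide peaks outside the blocks matched another member, and 2 matched the profile of the mitochondrial genome. The other 21 block peaks had no match. The 976 members outside the blocks that matched nothing, called unmatched here, held 6.11% to 16.1% of the tags.

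Among the 976 unmatched members, level and spread went in opposite directions as a description: the 448 under 10 CPM had a median 10 to 90% width of 475 nt, and the 97 over 100 CPM one of 39 nt. The strongest unmatched member, chr19:56676367-56677617 (minus strand, 1251 nt, 30697 CPM), had a 10 to 90% width of 3 nt, and 76.9% to 91.5% of its tags in soleus and 70.6% to 81.1% in EDL started at 1 base. Next came chr12:39958724-39959368 (minus strand, 645 nt, 5250 CPM, width of 4 nt) and chr5:59025390-59026026 (minus strand, 637 nt, 4776 CPM, width of 39 nt). As a description of position, 17.7% of wide peaks had another peak of the same strand within 100 nt (4.28% and 5.77% in the middle and narrow classes), and 13.01% overlapped a peak of the opposite strand, 80% in the blocks and 6.86% among unmatched members.

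The share of all tags in wide peaks ran from 33.4% to 50.4% in soleus and 35.5% to 50.4% in EDL. The share in the blocks was lower in soleus in 18 of 21 rats, with a median of 29.9% in soleus and 34.1% in EDL. Unmatched members took a larger share in soleus in 15 of 21 rats, with medians of 11.7% and 9.25%. In soleus this share was 12.7% to 15.7% at R1 and 8.86% to 15.9% in the controls, so these phases overlapped. The spread within the peaks moved little: over the 437 members with at least 20 tags in every library, the median 10 to 90% width was 301 to 350 nt in the soleus and 315 to 365 nt in the EDL libraries, and 288 to 343 and 279 to 343 nt after thinning each peak to 20 tags.

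**Figure D2:**
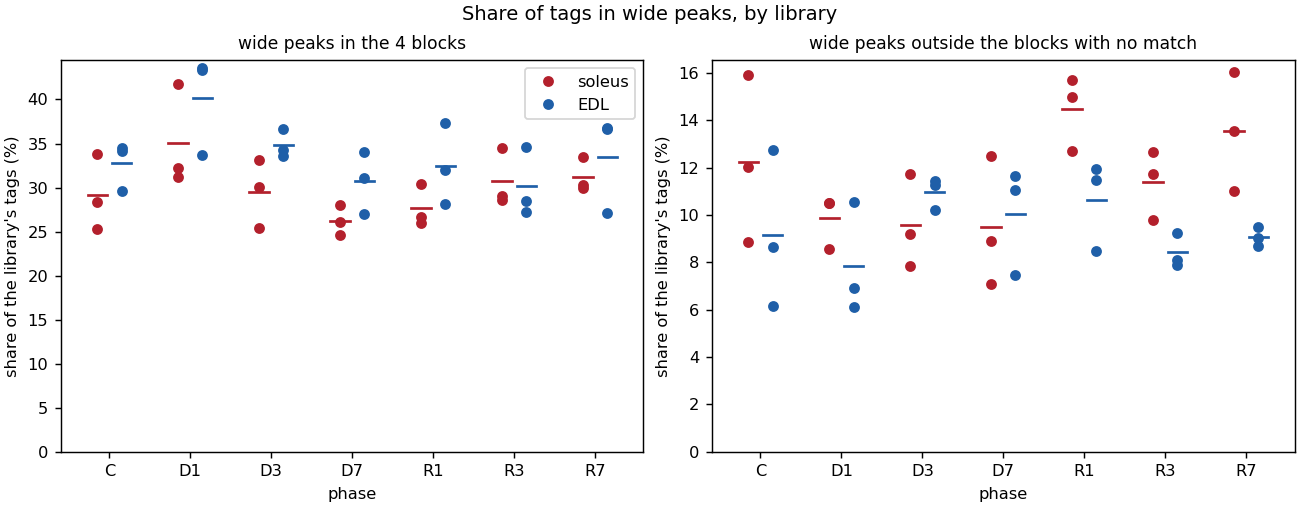
Share of each library's tags (%) that fell in wide peaks of the 4 blocks (left) and in unmatched wide peaks outside the blocks (right), by phase; points are libraries, 3 rats per group, and bars are group means. EDL sits above soleus in the blocks in most rats (18 of 21) and the order is the opposite for the unmatched members (15 of 21).

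To ask which wide peaks separated the slow from the fast muscle, soleus was compared with EDL as the mean over the 7 phases. A call needed a change of over 2.38-fold and an adjusted p, over all peaks tested, of less than 0.05 in edgeR's quasi-likelihood test. Of 1076 wide peaks tested 171 were called (15.9%), beside 14% of all 9947 peaks tested. In soleus 77 were higher (7.16%, beside 7.05% of all) and 94 lower (8.74%, beside 6.98%). How many of these reached 10 CPM in 1 muscle only was not counted. The median log2 difference was -0.07 in wide peaks and 0.08 over all peaks tested. None of the 85 block peaks was called, and their log2 differences ran from -1.22 to 0.20. In a bulk muscle, fewer cells of a type and less RNA per cell cannot be told apart in these differences. With the tag totals as library sizes the median of all peaks moved to 0.39, and the calls divided into 112 higher and 64 lower. Among the called members, 53 of the 77 higher and 70 of the 94 lower peaks were also called in the control rats alone, where 174 wide peaks were called in all (16.2%, beside 12.9% of all peaks). The sharper members were called more often, as a description: 25 of 108 with a 10 to 90% width of at most 50 nt (23.1%), 94 of 549 between (17.1%) and 52 of 419 of at least 500 nt (12.4%). Spread was taken over the same libraries as the calls. The like shares by spread over all peaks were not counted, so these say nothing about wide peaks in particular.

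The 3 members with the largest excess in EDL reached 10 CPM in EDL libraries only. They are in the table only through that muscle, so their differences are given without a test. At chr7:119428695-119429248 (minus strand, 554 nt), CPM ran from 0 to 5.43 in the 21 soleus libraries (median 0.120) and from 28.2 to 223.1 in EDL (median 80.4). The log2 difference was -8.50 ± 0.39 (SE), and soleus was lower in every rat. Its strongest base held 48.0% of its pooled tags. In chr5:118769140-118769955 (plus strand, 816 nt) soleus held 0.120 to 5.01 CPM (median 0.577) and EDL 13.96 to 128.4 (median 61.8), a log2 difference of -6.36 ± 0.32. For chr10:53742228-53742729 (plus strand, 502 nt) the values were 0 to 3.74 CPM in soleus (median 0.385) and 20.8 to 65.2 in EDL (median 36.5), a log2 difference of -6.14 ± 0.32. In all 3 peaks, picked as the largest differences, the lowest EDL library stood above the highest soleus library.

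Members highest in soleus relative to EDL had ranges that overlapped between the muscles. None reached 10 CPM in any EDL library, so they are in the table only through soleus. Their differences and counts of rats are therefore given without a test. At chr1:50421407-50421939 (plus strand, 533 nt) soleus held 0.496 to 28.7 CPM (median 8.52) and EDL 0 to 2.13, with 12 of 21 EDL libraries at 0 tags. Soleus was higher in 21 of 21 rats, the mean CPM was 46.5 times as high, and the log2 difference was 6.49 ± 0.53. Its soleus controls held 23.5 to 28.7 CPM, above the soleus libraries of D1 (up to 15.99) and R1 (up to 8.52) and overlapping those of R7 (up to 27.5). In chr1:277977208-277977708 (minus strand, 501 nt) the soleus values were 1.62 to 151.6 CPM (median 37.5) and the EDL values 0 to 8.78 (median 0.642), with a log2 difference of 5.46 ± 0.34 and soleus higher in 21 of 21 rats. The soleus libraries of D1 were the low ones here, at 1.62 to 3.98 CPM, beside 37.5 to 81.4 in the controls. Finally chr1:72418970-72419663 (plus strand, 694 nt) held 0.212 to 81.1 CPM in soleus (median 3.80) and at most 0.882 in EDL, where 12 libraries had no tag. Its log2 difference was 5.33 ± 0.48, with soleus higher in 20 of 21 rats. Its soleus level was 36.4 to 81.1 CPM at R1 and 1.92 to 2.16 in the controls. For chr1:50421407-50421939 and chr1:72418970-72419663 some EDL phases had no tag at all, so the fitted size depends on the prior count of the fit.

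Changes against control were asked phase by phase in each muscle. In soleus the filter kept 1075 wide peaks. At D1, 44 were called (4.09%, beside 1.97% of all peaks), 17 higher (beside 0.853%) and 27 lower (beside 1.12%). At D3 there were 12 (1.12%, beside 0.732%), 6 higher (background 0.417%) and 6 lower (background 0.315%), and at D7 only 3 (0.279%, beside 0.122%), 1 higher (background 0.0711%) and 2 lower (background 0.0508%). At R1 the number rose to 311 (28.9%, beside 23.3%), at R3 it was 23 (2.14%, beside 1.66%) and at R7 62 (5.77%, beside 4.19%). The R3 calls were 13 higher (beside 1.22% of all peaks) and 10 lower (beside 0.437%), and those of R7 34 higher (beside 2.81%) and 28 lower (beside 1.37%). At R7, 3 of the 34 higher peaks, and 40 of 277 over all peaks, reached 10 CPM in that group alone and so are in the table only through it. In EDL, with 1038 wide peaks kept, 63 were called at D1 (6.07%, beside 3.07%), 49 of them higher (beside 1.92%) and 14 lower (beside 1.16%), 20 at D3 (1.93%, beside 1.26%) and 21 at D7 (2.02%, beside 1.09%), 13 of them higher (beside 0.599%) and 8 lower (beside 0.492%). Of the 49 higher at D1, 4 reached 10 CPM only in EDL at D1, as did 16 of 179 over all peaks. No wide peak was called in EDL at R1, R3 or R7, as for all peaks (0%). At an unadjusted p under 0.05 the edgeR test held 113, 88 and 25 of the 1038 wide peaks there, and DESeq2 called 5, 3 and 0. The like counts over all peaks were not taken, so these say nothing about wide peaks in particular. Over the 6 phases 365 of 1075 wide peaks were called at least once in soleus (34.0%, beside 27% of all peaks tested), 72 of them in several phases (6.70%, beside 4%). In EDL 82 of 1038 were called at least once (7.90%, beside 4.22%). Unmatched members had 299 calls of 975 at R1 in soleus and 63 of 938 at D1 in EDL. At R3 in soleus 8 of them were higher and 10 lower, so the balance of 13 to 10 turned without the block and matched peaks.

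These counts depended on single rats in most phases, R1 in soleus excepted (243 to 329 calls with any 1 rat left out). In soleus D1 the count was 15, 28, 16 or 10 without U24, U6, U8 or U25. For D3 it was between 1 and 7 without U6, U7, U8, U9, U10 or U11, and for D7 it was 0 or 1 without U8, U1, U2 or U3. At R3 the count fell to 0 without U6, U8 or U4, to 2 without U7, to 10, 12, 13, 15 or 15 without U20, U16, U21, U9 or U13, and rose to 40 or 39 without U12 or U19. At R7 it was 10, 18, 23, 24 or 40 without U6, U12, U7, U13 or U8 and 141 without U19. In EDL, D1 gave 22, 25 or 22 calls without U6, U8 or U25 and 102 without U26. For D3 the count lay between 2 and 12 without U7, U10, U9, U8 or U6, was 31 without U25 and reached 126 without U11. For D7 it was 3, 6, 9 or 3 without U6, U7, U8 or U1 and 32 without U25 or U26. Rats U6, U7 and U8 are the controls. With the sequencing lane as a term, in 1 fit over both muscles, 4 wide peaks were called in soleus at D1 and 4 at R1, and 0 in the other phases of both muscles. That fit thus differed from the fits per muscle in its libraries as well as in the lane term, and its share of calls over all peaks was not counted. The peaks called without lane kept median absolute log2 fold changes of a like size in that fit (soleus D1, R1 and R7 2.25, 1.73 and 1.61 after 2.01, 1.84 and 1.86, EDL D1 2.43 after 2.51), while the median SE rose. The tag totals as library sizes moved the median of all peaks by over 0.1 in most phases, to 0.17, 0.13 and 0.20 in soleus at D3, D7 and R3 and 0.40 and 0.37 in EDL at D3 and D7. On that scale soleus had 1 call upward and 0 downward at D3 and 14 and 2 at R3 (6 and 6, 13 and 10 before), and there were 39 and 3, 36 and 0, and 32 and 1 at D1, D3 and D7 in EDL (49 and 14, 16 and 4, 13 and 8 before). In the fit with lane 302 of the 311 peaks called at R1 kept their direction, while their median SE went from 0.45 to 1.30. For most of these peaks, taken singly, phase and lane therefore cannot be told apart. None of the peaks named for the largest rises and falls against control in a phase was called with lane as a term.

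**Figure D3:**
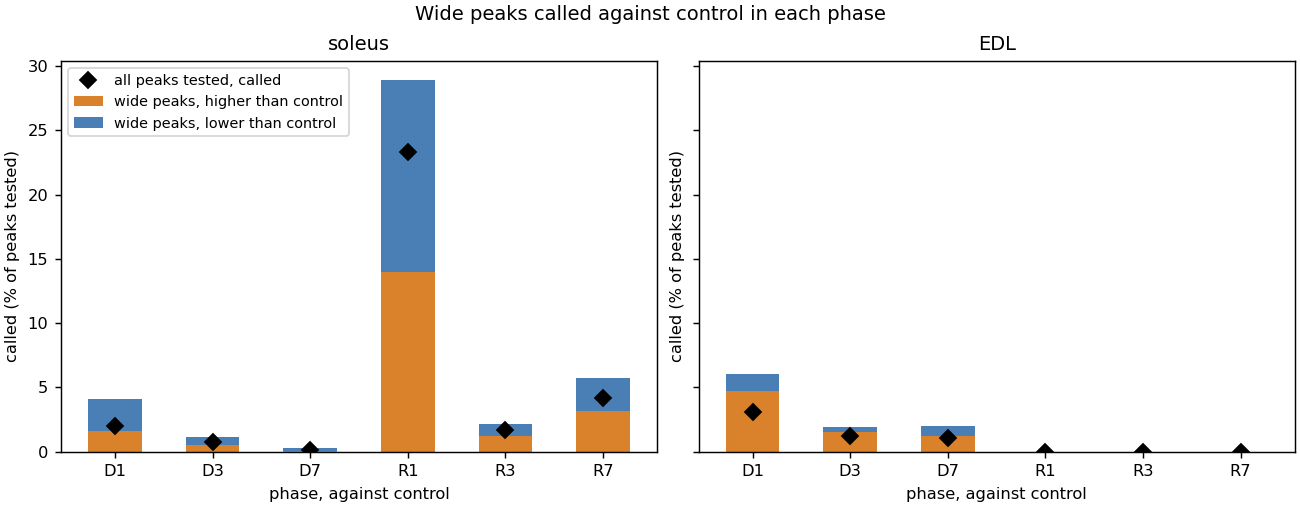
Wide peaks called against control (% of wide peaks tested) in each phase of soleus (left) and EDL (right), as stacked bars for higher and lower, with the share of all peaks tested as diamonds. Soleus R1 stands at 28.9% for wide peaks and 23.3% for all peaks, and the 3 recovery phases of EDL are at 0%.

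R1 in soleus was the phase in which wide peaks moved most. Of the 311 called, 150 were higher than control (13.95%, beside 14.7% of all peaks tested) and 161 lower (15.0%, beside 8.6%). The median log2 fold change was -0.29 in wide peaks and 0.05 over all peaks tested. The split depended on the scaling: with the tag totals as library sizes, the median of all peaks moved to 0.43 and the calls became 197 higher and 65 lower. Of the 150 higher peaks 54 reached 10 CPM in no library outside soleus R1, as did 689 of the 1450 called higher over all peaks tested. Such peaks are in the table only through the libraries where they were high, so the count of higher peaks is a description. Only 9 of the calls were block peaks. The lower peaks had a median 10 to 90% width of 524 nt and a median level of 15.1 CPM, and the higher ones 326.5 nt and 6.75 CPM. By spread, 25 of the 33 called members with a 10 to 90% width of at most 50 nt were higher, 84 of 155 between, and 41 of 123 of at least 500 nt. Level and spread were taken here over all libraries, R1 included, so they depend in part on the calls and only describe the sets. The like counts by spread over all peaks were not taken. The sets were chosen in soleus at R1, and the other soleus phases share its controls, so only their EDL values are described here. The EDL control and R1 libraries came from the same rats and lanes as those of soleus, so these values are not fully free of the choice either. In EDL 124 of the 150 higher peaks were tested. Their median log2 differences from the EDL controls were 0.95, 0.56 and 0.40 at D1, D3 and D7, where the medians of all peaks tested were 0.06, 0.04 and 0.03. Of these 124 peaks 23, 7 and 5 were called in those phases (beside 3.07%, 1.26% and 1.09% of all peaks), and none at R1, where the median was 0.23. Of the 161 lower peaks 157 were tested in EDL, with medians of 0.19, -0.56 and -0.28 at D1, D3 and D7, where 8, 2 and 2 were called, and -0.33 at R1 with none called.

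Among called peaks averaging 10 CPM or more in either group, the largest rises were in peaks with few tags in the controls. In chr18:29330042-29331185 (minus strand, 1144 nt) the controls held 0.120, 0.0864 and 0.128 CPM and the R1 rats 37.5, 14.3 and 16.6, a log2 fold change of 7.21 ± 0.93 (edgeR adjusted p = 2.52e-05). The control values rest on 4 tags in all. Over the pooled tags its 10 to 90% width was 862 nt, and the strongest position held 7.03%. Outside soleus R1 it reached 10 CPM only in EDL at D1, where its 3 libraries held 0.562 to 19.6 CPM. A pair of neighbours on the plus strand, 966 nt apart, rose together. The upstream one, chr1:102396470-102397331 (862 nt), went from 2.34, 1.99 and 3.85 CPM to 497.5, 104.8 and 94.3, a log2 fold change of 6.15 ± 0.72 (edgeR adjusted p = 1.22e-05). In the downstream one, chr1:102398298-102398958 (661 nt), the controls held 0.300, 0.432 and 0.128 CPM and the R1 rats 57.7, 22.5 and 27.5, a log2 fold change of 6.47 ± 0.57. The downstream peak reached 10 CPM in no other group, so it is in the table only through R1 and its change is given without a test. They differed in form, with 10 to 90% widths of 28 and 349 nt. At R3 the upstream peak held 2.90 to 4.59 CPM, which overlapped its controls. The downstream peak held 0.906 to 1.18 CPM at R3, above each of its controls. In EDL the upstream peak moved the other way at D1, from 17.96, 12.9 and 14.1 CPM in the controls to 2.25, 0.377 and 4.67, a log2 fold change of -2.55 ± 0.54 (edgeR adjusted p = 0.0125), a call lost without rat U25 (adjusted p = 0.068) and with lane as a term (-3.70, adjusted p = 0.35).

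The largest fall at R1 was in a peak with a much higher level in EDL. At chr9:73958278-73959013 (minus strand, 736 nt) the controls held 300.3, 426.6 and 373.0 CPM and the R1 rats 10.7, 7.96 and 50.7, a log2 fold change of -4.43 ± 0.90 (edgeR adjusted p = 0.00103). In soleus it held 74.6 to 91.5 CPM at D7 and 338 to 1830 CPM at R7. The same peak held 2244 to 4453 CPM in the EDL controls and 3276 to 4646 CPM in EDL at R1. In chr10:53711560-53712069 (plus strand, 510 nt) the level went from 30.4, 22.4 and 13.8 CPM to 1.98, 0.478 and 2.42, a log2 fold change of -4.16 ± 1.02 (edgeR adjusted p = 0.00408). For chr2:88126656-88127453 (plus strand, 798 nt) it went from 45.6, 46.3 and 29.9 CPM to 3.40, 3.58 and 2.42, a log2 fold change of -4.14 ± 0.96 (edgeR adjusted p = 0.00273). In none of the 5 peaks that reached 10 CPM outside soleus R1 as well did control and R1 libraries overlap. These 5 kept their direction with lane as a term, and none was called in that fit (edgeR adjusted p from 0.060 to 1). The log2 fold changes of the rises at chr18:29330042-29331185, chr1:102398298-102398958 and chr1:102396470-102397331 were then 4.41, 5.79 and 4.30. Those of the falls at chr9:73958278-73959013, chr10:53711560-53712069 and chr2:88126656-88127453 were -7.16, -8.49 and -2.27.

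**Figure D4:**
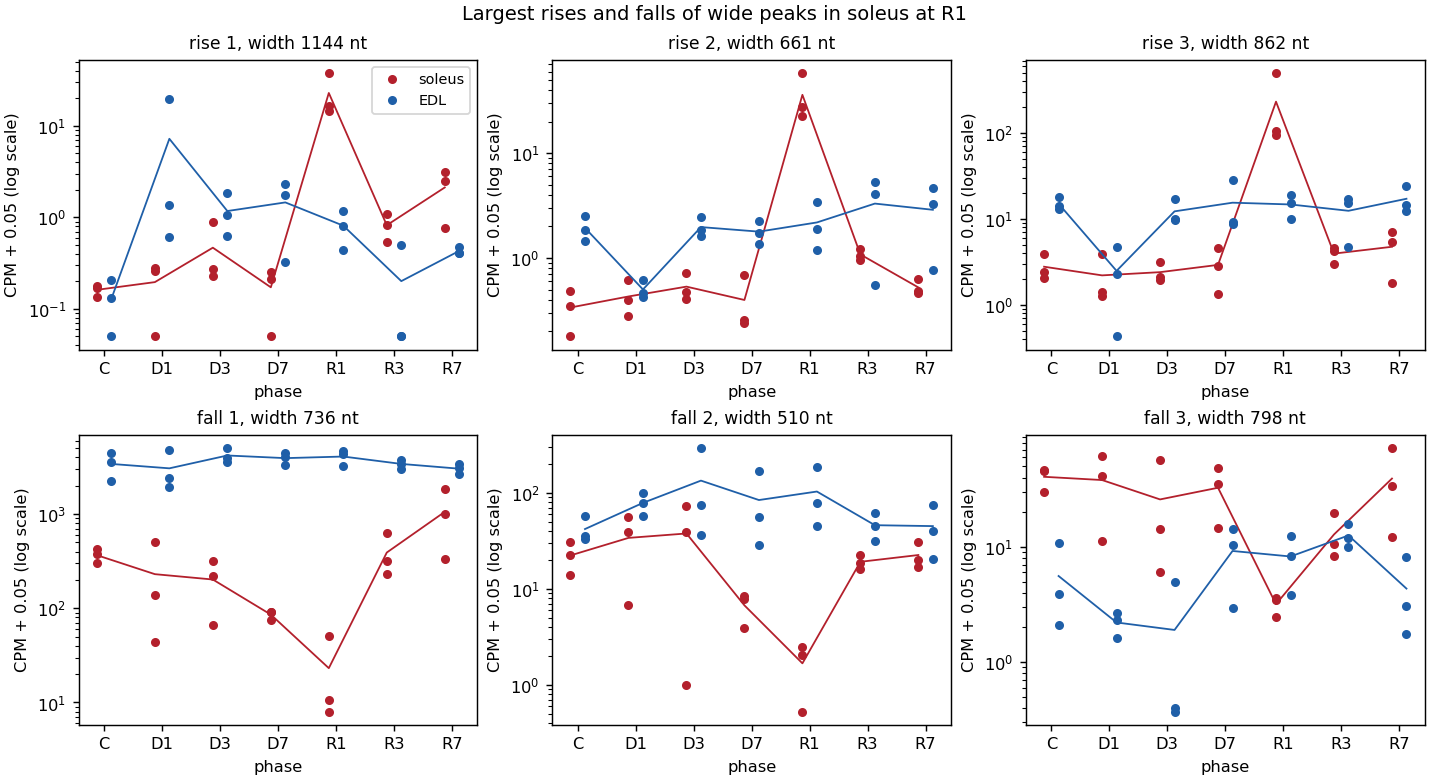
CPM plus 0.05 (log scale) of the 3 wide peaks with the largest rises (top, in the order 1144, 661 and 862 nt) and the 3 with the largest falls (bottom, 736, 510 and 798 nt) in soleus at R1, by phase; points are rats, 3 per phase and muscle, and lines join the means. The peaks were picked among called peaks averaging 10 CPM or more in either group. Soleus at R1 stands apart from the soleus controls in every panel, while EDL at R1 overlaps its own controls in all panels but that of the first rise.

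Whether the change at R1 differed between the muscles was tested as an interaction over all 42 libraries. Of 1076 wide peaks 139 were called (12.9%, beside 10.2% of all peaks), 64 with a larger change upward in soleus (beside 5.27% of all) and 75 with a larger change downward (beside 4.91%). Of the 139, 120 (86.3%) were among the 311 called in soleus at R1 (38.6% of these 311). The interaction contains the soleus change at R1 itself, so that overlap is in part built in. With DESeq2's size factors the calls divided into 72 and 57, and with the tag totals into 60 and 48. Of the 64 upward calls 27 reached 10 CPM in no library outside soleus R1, as did 253 of the 524 over all peaks, so the count of upward calls is a description. Without U6 the count was 62 and without U18 it was 77. No block peak was called. The upstream and downstream neighbours chr1:102396470-102397331 and chr1:102398298-102398958 had interaction log2 values of 6.43 ± 0.83 (edgeR adjusted p = 5.58e-06) and 6.49 ± 0.92, the second given without a test because that peak is in the table only through soleus R1. For chr18:29330042-29331185 the interaction was 4.46 ± 2.36 and was not called (edgeR adjusted p = 0.23).

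Smaller sets in the other phases had their own leading members, again among called peaks averaging 10 CPM or more in either group. At D1 in soleus chr4:30545275-30547014 (minus strand, 1740 nt, 10 to 90% width 1144 nt) rose from 14.1, 14.5 and 8.85 CPM to 84.2, 49.4 and 156.4, a log2 fold change of 2.93 ± 0.72 (edgeR adjusted p = 0.0343). It held 92.0 to 124.4 CPM in soleus at D7 and 1.48 to 21.9 at D3, and in EDL 114.7 to 261.5 at D1 and 3.11 to 18.4 at D3. Its call was lost without any of the D1 or control rats (edgeR adjusted p up to 0.16), and with lane as a term its log2 fold change was 2.71. The same peak was also called higher in soleus at R1, at a log2 fold change of 1.90 ± 0.69 (edgeR adjusted p = 0.0374). The largest fall at D1, chr17:86408061-86409121 (plus strand, 1061 nt), went from 5.58, 7.60 and 60.01 CPM to 0.173, 0.182 and 0.353, a log2 fold change of -6.37 ± 1.16 (edgeR adjusted p = 0.00755, and 0.051 without U25). The control range there was wide, and the peak held 92.8 to 215.7 CPM at R1. With lane as a term the fall was -6.85 on the log2 scale.

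During D3 and D7 chr15:4069082-4069615 (plus strand, 534 nt) led the falls in soleus. Its controls held 47.3, 31.7 and 101.5 CPM, the D3 rats 15.9, 1.20 and 4.24 and the D7 rats 2.58, 4.13 and 1.03, with log2 fold changes of -3.20 ± 0.67 (edgeR adjusted p = 0.0292) and -4.62 ± 0.74 (edgeR adjusted p = 0.0165). At R1 it was back at 41.6 to 66.3 CPM. The rises were chr5:169181835-169182396 (plus strand, 562 nt) at D3, from 2.82, 1.64 and 2.82 CPM to 12.4, 18.7 and 2.54, which overlapped the controls (log2 fold change 2.02 ± 0.46, edgeR adjusted p = 0.0403), and chr10:58972585-58973125 (minus strand, 541 nt) at D7, from 11.95, 7.77 and 15.3 CPM to 45.1, 83.8 and 32.9 (log2 fold change 2.04 ± 0.34, edgeR adjusted p = 0.0199). Each of these 4 calls was lost without at least 4 of the 21 rats in turn, with adjusted p up to 0.19. With lane as a term the falls of chr15:4069082-4069615 were -3.90 and -5.26 on the log2 scale, and the rises of chr5:169181835-169182396 and chr10:58972585-58973125 were 2.05 and 2.31. The tag totals as library sizes also ended all 4 calls (edgeR adjusted p from 0.056 to 0.084), at falls of -3.05 and -4.47 and rises of 2.23 and 2.22.

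In recovery, chr18:47512982-47513550 (minus strand, 569 nt) rose at R3 from 0.901, 1.81 and 2.82 CPM to 32.4, 5.32 and 29.4, a log2 fold change of 3.46 ± 0.85 (edgeR adjusted p = 0.0428). The broad peak chr9:10966086-10969163 (plus strand, 3078 nt), whose strongest position held 1.06% of its tags, fell at R3 from 11.5, 12.7 and 9.23 CPM to 3.67, 3.69 and 2.45, a log2 fold change of -2.02 ± 0.48 (edgeR adjusted p = 0.0402). At R7 chr1:254727031-254727833 (minus strand, 803 nt) rose from 1.20, 0.345 and 0.256 CPM to 6.37, 20.2 and 11.5, a log2 fold change of 4.30 ± 0.90 (edgeR adjusted p = 0.0145), and chr15:27818986-27819819 (minus strand, 834 nt) fell from 14.5, 9.59 and 11.4 CPM to 1.44, 1.12 and 4.42, a log2 fold change of -2.43 ± 0.54 (edgeR adjusted p = 0.0186). In soleus at R1 chr18:47512982-47513550, chr9:10966086-10969163 and chr1:254727031-254727833 were called in the same directions. Their log2 fold changes there were 2.80, -2.24 and 3.63 (edgeR adjusted p = 0.0134, 0.00157 and 0.00368), while chr15:27818986-27819819 was not called (-0.08). The R3 calls were lost without any of 11 and 8 single rats (adjusted p up to 0.21) and the R7 calls without any of 3 (up to 0.097). With lane as a term the R7 rise of chr1:254727031-254727833 dropped to 0.57 on the log2 scale (edgeR adjusted p = 1). The R3 changes of chr18:47512982-47513550 and chr9:10966086-10969163 became 2.14 and -1.0 in that fit (edgeR adjusted p = 1 for both), while the R7 fall of chr15:27818986-27819819 was -2.36. The R3 call on chr9:10966086-10969163 was also lost with the tag totals as library sizes (-1.77, edgeR adjusted p = 0.066).

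In EDL the peak that rose most at R7 in soleus, chr1:254727031-254727833, led at D1, from 0.574, 0.446 and 0.155 CPM to 5.06, 24.5 and 3.09, a log2 fold change of 4.99 ± 1.05 (edgeR adjusted p = 0.0114, up to 0.12 without U6, U8 or U25). With lane as a term this rise was 1.19 on the log2 scale (edgeR adjusted p = 0.99). At D3 and D7 it was chr9:119328971-119329559 (minus strand, 589 nt), with 11.9, 17.4 and 13.3 CPM in the controls, 589.4, 836.0 and 430.8 at D3 and 368.9, 271.2 and 241.9 at D7, log2 fold changes of 4.98 ± 0.71 (edgeR adjusted p = 0.00254) and 4.07 ± 0.68 (edgeR adjusted p = 0.0102, and 0.074 without U6). In EDL this peak also stood above every control at D1 (87.6 to 224.1 CPM) and R1 (61.2 to 183.7). The same held at R3 (29.3 to 178.4 CPM) and R7 (23.7 to 45.8), so the controls were its lowest EDL group. The soleus controls held 365 to 702 CPM of the same peak. The peak that fell most in both phases was chr9:80152259-80154627 (minus strand, 2369 nt), from 24.0, 78.0 and 35.7 CPM to 10.6, 10.6 and 13.3 at D3 (log2 fold change -2.52 ± 0.49, edgeR adjusted p = 0.0133) and 9.49, 6.04 and 20.6 at D7 (-2.47 ± 0.50, edgeR adjusted p = 0.019), calls lost without any of 3 single rats each. With lane as a term these falls were -3.03 and -3.10 on the log2 scale, and the rises of chr9:119328971-119329559 were 5.06 and 4.19. Both calls on chr9:80152259-80154627 were also lost with the tag totals as library sizes, at -1.99 and -1.90 (edgeR adjusted p = 0.073 and 0.12).

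A wide peak can also change where within it transcription starts. The centre, the mean position of the tags from the 5′ end of the peak, and the 10 to 90% width were compared with limma among peaks with at least 20 tags in every library of the fit. At R1 in soleus 711 wide peaks qualified. The soleus control libraries shared a lane and the soleus R1 libraries shared another. No lane term was fitted for centre or width, so phase and lane cannot be told apart in these comparisons at R1. The centre moved by over 20 nt at an adjusted p under 0.05 in 31 of them (4.36%, beside 1.69% of all peaks), 18 toward the 5′ end (beside 1.12%) and 13 toward the 3′ end (beside 0.569%). The peaks of at most 100 nt have little room for a move of over 20 nt, so these shares are not on equal terms. The 10 to 90% width changed by over 0.5 on the log2 scale in 22 (3.09%, beside 2.36%), 11 wider (beside 1.65%) and 11 narrower (beside 0.707%). With every peak thinned to 20 tags, 8 centres and 2 widths were called, and 7 and 2 of these were among the calls on all tags. Without U6 or U7 the centre count was 19 or 20, and without U6, U7 or U8 the width count was 14, 13 or 12.

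One change in the shares of start sites was in chr3:55909724-55911280 (plus strand, 1557 nt). In the soleus controls 51.5% to 59.0% of its tags started 372 nt from the 5′ end and 0.709% to 2.96% started at 158 nt. At R1 these shares were 4.68% to 10.2% and 32.2% to 45.8%. The centre lay at 427.3, 477.9 and 423.4 nt in the controls and at 243.8, 287.5 and 296.3 nt at R1, a move of -167.0 ± 16.9 nt (limma adjusted p = 3.21e-05). Thinned to 20 tags the move was -210.6 nt and was not called (limma adjusted p = 0.16). The level went at the same time from 277 to 633 CPM in the controls to 1465 to 3215 CPM at R1, a log2 fold change of 1.95 ± 0.37 (edgeR adjusted p = 0.000604). The smaller share at 372 nt therefore need not mean fewer starts there. At R3 the site at 372 nt held 41.6% to 45.8% and the site at 158 nt 2.20% to 3.39%. At R7 they held 33.6% to 42.2% and 1.87% to 11.6%, so the share at 372 nt was under that of every control in both phases. In EDL the site at 158 nt held 0.558% to 0.929% in the controls, 4.26% to 9.59% at D1, 2.05% to 6.80% at D3 and 1.97% to 4.10% at D7, and 0.178% to 1.04% at R1.

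A distinct case was chr1:101325759-101326819 (plus strand, 1061 nt), where a site 1014 nt from the 5′ end held 0% to 0.645% of the tags in the soleus controls and 17.6% to 28.6% at R1. Its highest share in any other library was 4.46%, in EDL at R3. The centre moved from 520.1, 530.6 and 591.5 nt to 917.5, 868.5 and 784.8 nt, by 309.5 ± 28.7 nt (limma adjusted p = 1.69e-05), and the level of the whole peak was not called (log2 fold change 0.33 ± 0.31, edgeR adjusted p = 0.40). In chr9:10799304-10801280 (minus strand, 1977 nt) the start at 120 nt held 13.8% to 20.7% of the tags in the soleus controls and 20.9% to 22.4% at R1. The start at 1022 nt held 15.1% to 18.9% in the controls and 4.32% to 8.92% at R1, and the centre moved by -189.4 ± 47.5 nt (limma adjusted p = 0.0249, up to 0.12 without U6, U7, U18 or U20). Thinned to 20 tags this move was -110.3 nt and was not called (limma adjusted p = 0.76). The peak fell at the same time by 1.69 ± 0.21 on the log2 scale (edgeR adjusted p = 2.09e-05).

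**Figure D5:**
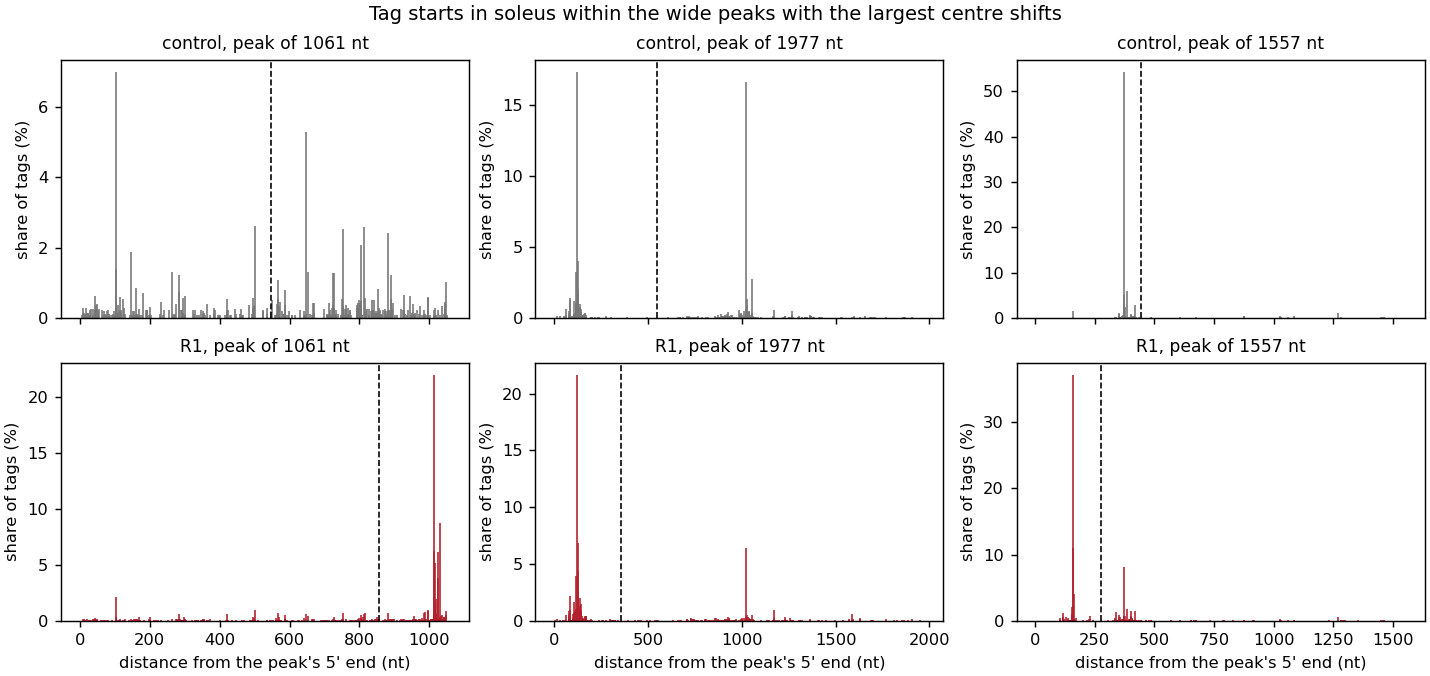
Share of the tags (%, mean of 3 rats) that started at each position of the 3 wide peaks with the largest centre moves in soleus at R1, against the distance from the 5′ end of the peak (nt), in controls (top) and at R1 (bottom); dashed lines mark the mean centre. In the 1557 nt peak the start with the largest share is at 372 nt in the controls and at 158 nt at R1. In the 1061 nt peak the start at 1014 nt leads at R1, and in the 1977 nt peak the start at 1022 nt takes a smaller share at R1 than in the controls.

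The largest changes in spread at R1 were narrowings. In chr9:119328971-119329559 the 10 to 90% width was 66, 67 and 65 nt in the soleus controls and 21, 2 and 4 nt at R1 (log2 ratio -3.58 ± 0.82, limma adjusted p = 0.0245), while its strongest base went from 53.4% to 56.2% of the tags to 64.3% to 76.6%. For chr5:57028361-57029037 (plus strand, 677 nt) it was 38, 32 and 28 nt and then 4, 4 and 3 nt (log2 ratio -3.16 ± 0.43, limma adjusted p = 0.000403). This peak also rose from 28.8 to 37.4 CPM to 789 to 2972 CPM, a log2 fold change of 5.28 ± 0.52 (edgeR adjusted p = 3.52e-06). In chr5:107323146-107323736 (plus strand, 591 nt) the width went from 308, 307 and 232 nt to 52, 41 and 46 nt (log2 ratio -2.60 ± 0.58, limma adjusted p = 0.0227), and the level was not called. The first and last of these calls were lost without any of several control or R1 rats (adjusted p up to 0.12 and 0.085), and no call on any of the 3 was kept at 20 tags, where the log2 ratios were -3.70, -2.35 and 0.11 in the same order (limma adjusted p = 0.30, 0.69 and 1). With the 25 to 75% width as the measure none of the 3 was called either: the log2 ratios were -2.72, -1.06 and -1.28 for chr9:119328971-119329559, chr5:57028361-57029037 and chr5:107323146-107323736 (limma adjusted p = 0.30, 0.50 and 0.37).

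Between the muscles, 437 wide peaks had 20 tags in all 42 libraries. The centre differed in 37 (8.47%, beside 2.09% of all peaks), 12 further 3′ in soleus (beside 0.751%) and 25 further 5′ (beside 1.34%), and the width differed in 23 (5.26%, beside 4.62%), 11 wider in soleus (beside 2.69%) and 12 narrower (beside 1.94%). As at R1, narrow peaks have little room for a move of over 20 nt, so the centre shares are not on equal terms. After thinning, 10 centres and 2 widths were called, 7 and 2 of them among the calls on all tags. Of the 37 centre calls 7 were block peaks, among them the largest, chr14:46643057-46647705, with 1260 to 1858 nt in soleus (median 1568) and 1306 to 1959 nt in EDL (median 1707), a difference of -167.9 ± 49.6 nt (limma adjusted p = 0.00916), higher in soleus in 5 of 21 rats. In chr9:10799304-10801280 the centre lay at 308.4 to 601.7 nt in soleus (median 441.4) and 232.5 to 579.6 nt in EDL (median 332.9), a difference of 114.1 ± 18.4 nt (limma adjusted p = 1.38e-05), with soleus further 3′ in 17 of 21 rats. The order was the opposite in chr6:75759466-75761568 (minus strand, 2103 nt), at 508.0 to 700.0 nt in soleus (median 583.5) and 495.4 to 851.1 nt in EDL (median 715.1), a difference of -113.5 ± 17.96 nt (limma adjusted p = 1.01e-05). The muscles overlapped in each. None of these 3 centre calls was kept at 20 tags, where the differences were -211.2 nt for chr14:46643057-46647705, 113.5 nt for chr9:10799304-10801280 and -108.5 nt for chr6:75759466-75761568 (limma adjusted p = 0.38, 0.0505 and 0.27).

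The 3 largest differences in spread between the muscles were all wider in soleus. In chr9:17340276-17341142 (plus strand, 867 nt) the 10 to 90% width was 11 to 560 nt in soleus (median 254) and 6 to 251 nt in EDL (median 8), a log2 ratio of 3.18 ± 0.51 (limma adjusted p = 3.22e-05), while its strongest base held medians of 56.0% and 66.1% of the tags. In chr7:2908691-2909245 (minus strand, 555 nt) it was 36 to 371 nt (median 355) and 29 to 365 nt (median 43), a log2 ratio of 2.20 ± 0.26 (limma adjusted p = 4.27e-07), wider in soleus in 18 of 21 rats. In chr1:128721034-128722013 (minus strand, 980 nt) it was 6 to 555 nt (median 32) and 3 to 369 nt (median 8), a log2 ratio of 1.98 ± 0.53 (limma adjusted p = 0.0079). With the 25 to 75% width as the measure chr9:17340276-17341142 and chr1:128721034-128722013 were not called, at log2 ratios of 0.50 and 0. Nor were they at 20 tags, at 2.65 and 0.77. Their log2 differences in level between soleus and EDL were -0.84 and -1.34.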

How the data were processed

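Total RNA of whole soleus and EDL muscle of 21 rats gave 42 CAGE libraries. The authors trimmed the reads with Trimmomatic (0.38 in the submitters' processing notes), mapped them to Rnor_6.0 and aggregated the tag starts. Up to 20 loci per read is the setting given in the study's methods. The notes also name BWA and HISAT2 and the study's methods name STAR, so the aligner behind these files is not settled here. The deposited values used were whole-number tag counts per position and per peak, with no normalization. The sum of the tag counts over the positions of a peak equalled the deposited peak count in all 418782 pairs of peak and library. The 42 normalized columns of the peak table were not used. The header of the peak table names a tag clustering protocol, while the study's methods describe decomposition-based peak identification, so the clustering behind the peak widths is not settled here either. Phases came from the protocol labels of the samples, and muscle and rat from the titles.

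Members and lists were chosen with earlier results of these data known. Level was tested on the counts of all peaks with edgeR 4.0.16 (filterByExpr, TMM, quasi-likelihood test; R 4.3.3), in 1 fit per muscle for the phases and 1 fit over both muscles otherwise. The SE is the log2 fold change divided by the square root of F. Centre and log2 10 to 90% width were tested with limma 3.58.1 among peaks with at least 20 tags in every library. All p-values are two-sided, with Benjamini-Hochberg adjustment over all peaks tested. Called meant an adjusted p under 0.05 with an absolute log2 fold change over 1.25, a move over 20 nt, or a log2 width ratio over 0.5. Peaks named are the widest, the strongest (also among unmatched members), those of largest and smallest relative spread, those nearest the width limit, and the largest called changes of each comparison. The changes in level, between muscles and in every phase, were limited to peaks averaging 10 CPM or more in either group compared. The scripts recovered known changes in simulated data. Alternatives were DESeq2 1.42.0, DESeq2's size factors, tag totals, no filter on low counts and a lane term. The lane term was used for level only, always in 1 fit over both muscles. Others were the rat as a block, other width limits, other tag minimums, thinning, the 25 to 75% width and leaving out each rat. The rat number in the titles marks both muscles of 1 animal. Deviations of the 2 muscles of a rat from their group means correlated from -0.42 to 0.64 over 4806 peaks (median 0.24, over 0.1 in 15 of 21 rats). Counts per library limit low peaks most, and counting error adds to the spread between rats there.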

Additional observations from a re-analysis of the deposited data

Results flagged for a closer look

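The change from control to R1 differed between soleus and EDL, by the interaction term of the edgeR fit over all libraries, in 139 wide peaks. Of the peaks named above with the largest changes in soleus at R1, 5 were among them. Their interaction log2 values, soleus minus EDL, were 6.49 at chr1:102398298-102398958 and 6.43 at chr1:102396470-102397331, and -4.45 at chr9:73958278-73959013, -5.14 at chr10:53711560-53712069 and -4.44 at chr2:88126656-88127453. These peaks were named for their change in soleus at R1, which is a part of the interaction, so the values describe them, and the first of them is in the table only through its soleus R1 libraries. Single samples far from the rest of their group were not looked for, since every group had 3 rats.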

How the results depend on the processing

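Without one rat at a time, the calls ran from 10 to 51 in soleus at D1, 1 to 16 at D3, 0 to 4 at D7, 243 to 329 at R1, 0 to 40 at R3 and 10 to 141 at R7. In EDL they ran from 22 to 102 at D1, 2 to 126 at D3, 3 to 32 at D7 and 0 to 1 at R3, and were 0 at R1 and R7. For the interaction the range was 62 to 149, for the muscle difference 164 to 189 (controls 122 to 178). The centre gave 31 to 47 calls between muscles and 19 to 36 at R1, and the width 21 to 28 and 12 to 24.

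With lane as a term, in 1 fit over both muscles, the soleus phases D1, D3, D7, R1, R3 and R7 gave 4, 0, 0, 4, 0 and 0 calls, and EDL at D1, D3 and D7 gave 0, 0 and 0. The median absolute log2 fold changes of the peaks called without it were 1.61 to 2.52 with lane and 1.68 to 2.51 without. DESeq2 gave 27, 18 and 46 calls in soleus at D3, D7 and R3, and 50, 48, 5 and 3 in EDL at D3, D7, R1 and R3. Tag totals gave 1 and 0 in soleus at D3 and D7 and 36 and 33 in EDL at D3 and D7. With a width of at least 600 nt, which tests fewer members, the counts were 27, 4 and 0 in soleus at D1, D3 and D7, 12 and 13 in EDL at D3 and D7, and 13 for the centre and 9 for the width at R1. With at least 400 nt they were 215 for the interaction, 53 and 46 for centre and width at R1, and 40 for width between muscles. Thinned to 20 tags, centre and width gave 10 and 2 between muscles and 8 and 2 at R1, and the width ratio of chr5:107323146-107323736 turned to 0.11. At least 50 tags gave 24 and 13 between muscles, and the 25 to 75% width 39. Where no value is given, the cause was not tested. The remaining counts stayed within 1.5 times the main count.

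With the rat as a replicate block, which pairs the muscles, the calls were 169 for the muscle difference, 177 in controls, 152 for the interaction, and 45 and 24 for centre and width between muscles, each within 1.5 times the count without it.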
